A study of Danio rerio with 12 samples.

Results

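Copper oxide (CuO) nanoparticles were compared with no particle in the gill of adult zebrafish (Danio rerio). The comparison took the 3 arrays whose titles name CuO nanoparticles at 96 h and the 3 whose titles name the control, 6 of the 12 arrays of the series. The CuO pools came from fish kept for 96 h in water with 0.2 mg/L CuO nanoparticles, and the control pools from untreated fish sampled at the same time. The other 6 arrays came from fish kept for 96 h with 4.8 mg/L ZnO or 17.5 mg/L NiO nanoparticles, and they were used to test where CuO differed from the other particles. Per the labels, doses were scaled to the median lethal concentration of each particle, each pool held the gills of 10 fish, and fish were not fed during the exposure. The labels do not state sex or strain. Since a pool is a mixture of gill cell types, fewer cells of a type and less RNA per cell cannot be told apart.

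The gill is the organ of gas exchange and ion uptake in fish, and its thin epithelium holds ionocytes, mucous cells, pavement cells and resident immune cells in direct contact with the water. Copper is an essential metal that cells take up through the transporter Slc31a1, pass to enzymes by chaperones such as Atox1 and Ccs, export through Atp7a, and buffer with metallothioneins, small metal-binding proteins induced through the metal-sensing factor Mtf1. Excess copper ions displace other metals from proteins and promote oxidation, and heat shock chaperones and enzymes of the endoplasmic reticulum (ER) are classical responders to damaged proteins.

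Levels are log2 processed signals minus the array's own 75th percentile, and a difference is in log2 units with its standard error (SE). A gene is called if limma's adjusted p is under 0.05. The array check found gill markers in all groups: 47 to 53 of the 53 ion transport and ionocyte genes and 52 to 53 of the 53 keratin and barrier genes were well above background on each array. Between 75.5% and 88.4% of spots were well above background and 0 were saturated. Arrays of a group correlated across genes at r = 0.859 to 0.967 under CuO and 0.912 to 0.924 in the controls. The median SD within a group was 0.60, and 3 arrays a group limit the precision: the median half-width of a 95% interval was 1.06 for CuO minus control.

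Arrays stood apart by transcripts of other tissues. The median level of 48 oocyte genes was 2.75, 2.86 and 3.05 on the controls and between -5.10 and -3.30 on the exposed arrays, except 1.44 on NiO 1. The median level of 79 eye genes lay between -5.45 and -4.94 on 4 arrays, 1 of each group (control 3, CuO 3, ZnO 1, NiO 2), and between 0.43 and 2.4 on the remaining 8. The median level of 41 pancreas and intestine genes was 1.45, 1.84 and 2.76 on the controls, 3.04, 3.65 and 3.62 under CuO, -3.93, 0.46 and 2.27 under ZnO and 2.31, 2.52 and 2.86 under NiO. All 3 CuO arrays were above the other 9 in that list. The median level of 50 liver and plasma genes was 2.34, 3.22 and 3.46 on the controls, 3.21, 3.47 and 3.90 under CuO, -3.12, 2.37 and 3.65 under ZnO and 2.96, 1.82 and 3.67 under NiO. All 41 pancreas and intestine genes and all 50 liver genes were well above background on each CuO and control array.

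Against the controls, 1439 of 12617 genes rose under CuO (11.4%) and 1723 fell (13.7%). A change of at least 8-fold was found for 40 of the risen and 541 of the fallen genes. Oocyte genes and cell cycle genes were prominent among the falls, with 41 of 48 and 81 of 124 members called lower. The other particles shared these falls. Called lower were 44 oocyte and 66 cell cycle genes under ZnO, and 40 and 75 under NiO. Called higher were 5 cell cycle genes under ZnO, 2 under NiO and 0 under CuO. Compared with the mean of ZnO and NiO, 14 cell cycle genes were lower and 0 higher under CuO at an unadjusted p under 0.05. The share lower was 11.3%, against 4.02% of all genes. However, 459 of the 541 large falls under CuO were in neither list. Of the 1723 fallen genes, 100 entered the test only through the control arrays and so had to be lower under CuO. They include 3 of the 41 oocyte genes and 0 of the 81 cell cycle genes. The median gene lay 0.42 above the controls, so list medians below are also given relative to that gene. When arrays were instead centred on cytosolic ribosomal protein genes, 595 genes rose and 1919 fell, and the median gene lay 0.11 above. Single arrays moved the number of risen genes: it was 923 without control 1, 683 without control 3, 575 without CuO 1 and 786 without CuO 2. Limma called 0 genes when the mean oocyte level entered as a covariate, with 610 at an unadjusted p under 0.05. The oocyte level separates the controls from the CuO arrays completely, so in this comparison oocyte content and exposure cannot be told apart. Among the genes named below, ribosomal centring ended the calls of lgals9l5, cpo, dpp4, mtf1, slc30a10, slc39a3, sod3a, loxl2b, loxa, dldh, syk, zap70, il2rga, pax5, rela, nfkbiaa and asns. Leaving out the 4 arrays low in eye transcripts ended those of cpo, dpp4, mtf1, slc39a3, cox19, loxl1, loxl2b, loxa, lipt2, ostc, derl2, asns, mgst1.2, nqo1, syk, il2rga, pax5, rela, nfkbiaa, trim25, ncf4, tekt1, rhbg, egr1, btg2, ddit4, pimr140, pimr166, aldh3b1 and cuedc1b. Taking the mean of a gene's probes ended those of hoxb13a, ftr86, sdf2l1, derl2, asns, loxl2b, loxa, rela, nfkbiaa, rhbg, dcn, nr1d2b and tsnax.

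**Figure D1:**
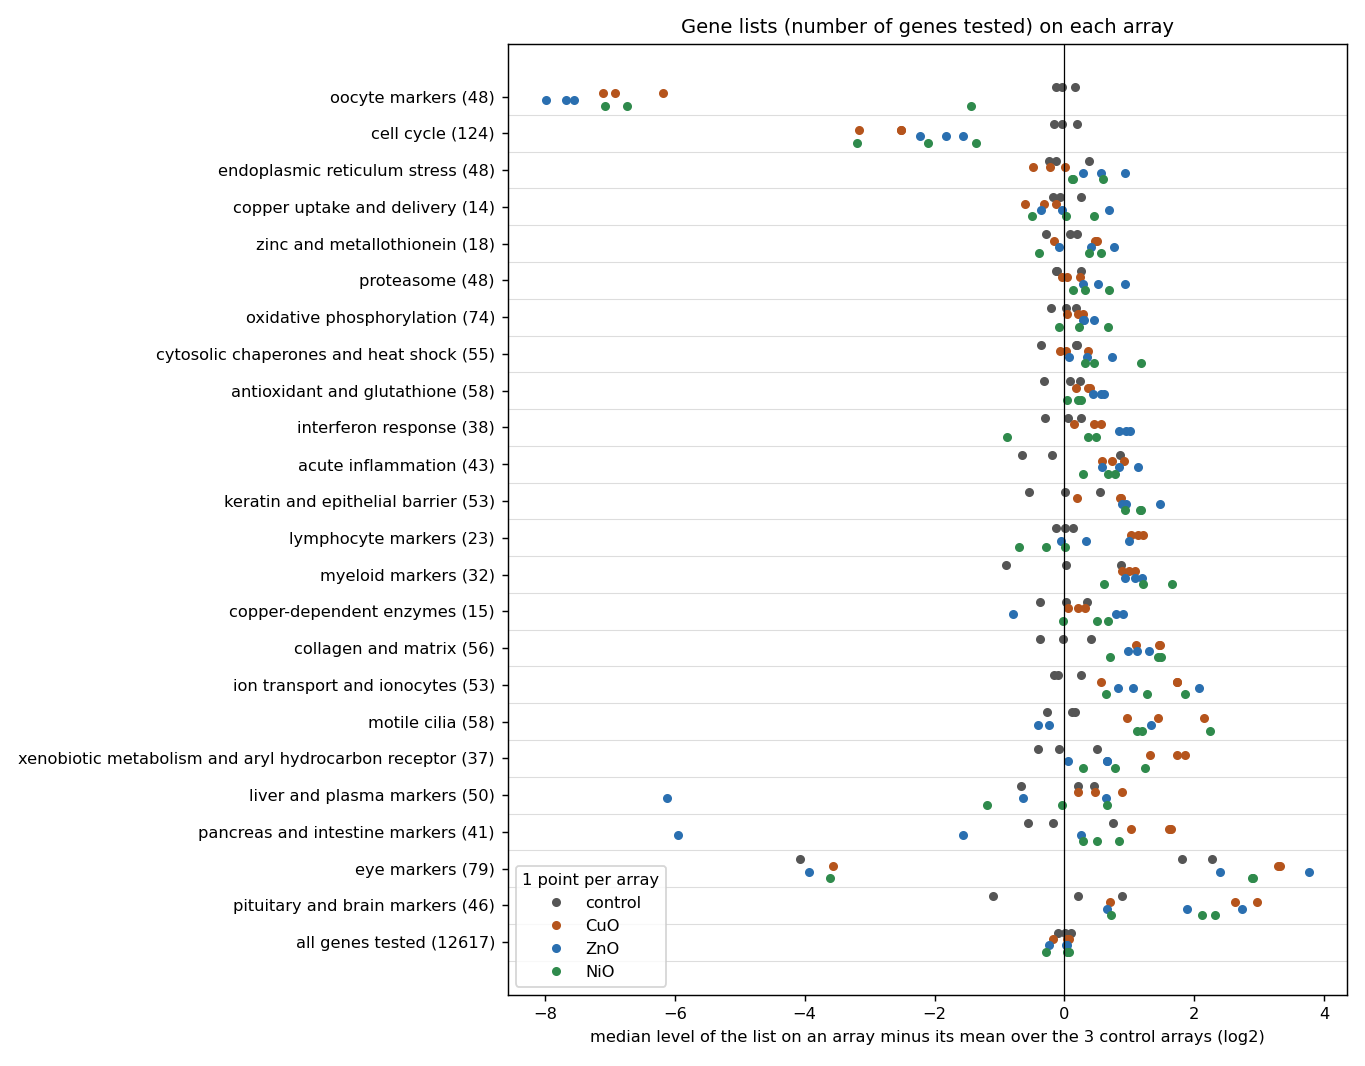
Median level of each gene list on each of the 12 arrays, minus its mean over the 3 control arrays (log2, x axis), with the number of genes tested beside each list name. Oocyte and cell cycle genes lie below the controls on all CuO, ZnO and NiO arrays. The CuO arrays lie to the right of the other 9 for the pancreas and intestine list.

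Whether CuO differed from the other particles was tested as CuO minus the mean of ZnO and NiO. The mean of the controls takes no part in this difference, though their spread enters its SE. NiO 1 does take part in it. The median oocyte level was 1.44 on that array and -4.22 to -3.30 under CuO, so oocyte content was not equal on both sides. Limma called 0 of 12617 genes, with 579 higher (4.59%) and 507 lower (4.02%) at an unadjusted p under 0.05, or 8.61% in all. It also called 0 genes for CuO minus ZnO (1252, or 9.92%, at an unadjusted p under 0.05) and 0 for CuO minus NiO (784, or 6.21%). For the first difference the median half-width of a single gene's 95% interval was 0.92, before any adjustment over genes. On all 3 CuO arrays 237 genes (1.88%) were above all the other 9 arrays and 132 (1.05%) were below them. Most genes of the next paragraphs come from those with the smallest p-values among them, and all were chosen after their values were seen, so that their values are a description.

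The smallest p belonged to cyp8b1.2, a copy of the sterol 12-alpha-hydroxylase gene that in mammals sets the composition of bile acids. Its levels were -0.38, 0.93 and 1.16 under CuO against -2.4, -2.14 and -1.97 in the controls, -2.59, -2.73 and -2.4 under ZnO and -2.74, -2.29 and -2.01 under NiO. The 3 CuO arrays stood above every other array. It was 6.68-fold higher than in the controls (2.74, SE 0.40, adjusted p = 0.00205) and 3.03 above the mean of ZnO and NiO (SE 0.34, unadjusted p = 4.16e-06, adjusted p = 0.0525), so that it missed the threshold over all genes. With the percentile taken over probes detected on all arrays, its adjusted p against ZnO and NiO was 0.0457. It was also called with array weights or eye markers as a covariate, and without CuO 1 or ZnO 3. It was not called in the other settings, such as normexp, quantile normalization, ribosomal centring and the mean of probes. The paralogue cyp8b1.3 had -2.43, -0.47 and 0.02 under CuO and -4.31, -5.56 and -4.77 in the controls (3.92, SE 0.86, adjusted p = 0.00967). CuO 1 lay below ZnO 1, at -2.02. Whether the probes of these paralogues tell their transcripts apart was not tested.

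Of 37 genes of xenobiotic metabolism and the aryl hydrocarbon receptor, 9 rose against the controls and 0 fell (6 and 0 with ribosomal centring), with a median of 1.46, or 1.05 relative to all genes. The share that rose was 24.3%, against 11.4% of all genes. Against the same controls, 7 members rose and 2 fell under ZnO, and 5 rose and 1 fell under NiO. The same list had 11 members higher and 0 lower than the mean of ZnO and NiO at an unadjusted p under 0.05. The share higher was 29.7%, against 4.59% of all genes. Besides the cyp8b1 copies, cyp1c1, a target of the aryl hydrocarbon receptor, rose by 1.49 (SE 0.28, adjusted p = 0.00494). Its levels were 1.67, 1.3 and 0.77 under CuO and -0.50, 0.03 and -0.27 in the controls, and under ZnO and NiO they lay between 1.19 and 1.80, so CuO did not stand apart from them. In contrast cyp2aa1, a cytochrome P450, lay at -0.43, -0.33 and -0.24 under CuO, above all the other 9 arrays, whose highest was -0.70. Its rise against the controls was 1.65 (SE 0.40, adjusted p = 0.0142).

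Transporters and surface enzymes were among the genes outside the range of the other arrays. The peptide transporter slc15a2 was at 1.3, 1.27 and 1.66 under CuO, 0.29, -0.28 and 0.81 in the controls, -3.82, -2.12 and -1.02 under ZnO and -1.27, -1.72 and -2.07 under NiO. CuO thus lay above the controls while ZnO and NiO lay below them, but its rise against the controls was not called (1.14, SE 0.60, adjusted p = 0.181), and its difference from ZnO and NiO was 3.42 (SE 0.52, adjusted p = 0.122). The organic anion transporter slco1f2 was not well above background in any control. It had -3.77, -2.73 and -2.72 under CuO, at least 34.1-fold higher than in the controls, against a highest value of -4.74 under the other particles. It entered the test only because all 3 CuO arrays were well above background, as did 23 of the 1439 risen genes, so its p-value gives no support and is left out.

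The intestinal brush border peptidases cpo and dpp4 followed the same order. For cpo, levels under CuO were -2.80, -4.28 and -1.65 and the other 9 arrays did not exceed -4.80. For dpp4, they were -2.92, -3.16 and -1.05 under CuO and at most -3.67 elsewhere. Their calls against the controls (3.15, adjusted p = 0.0313, and 1.91, adjusted p = 0.0288) depended on single arrays: that of cpo needed each of control 1 and 3 and CuO 1 and 3, and that of dpp4 was lost without control 2, control 3 or CuO 3. Of the 41 pancreas and intestine genes, 1 (dpp4) was called higher than in the controls (2.44%, against 11.4% of all genes) and 0 lower. At an unadjusted p under 0.05, 12 were higher (29.3%, against 4.59% of all genes) and 0 lower than the mean of ZnO and NiO. The ileal bile acid binding protein gene fabp6 had 3.52, 3.92 and 4.11 under CuO and 1.62, 0.60 and 3.47 in the controls, and the intestinal factor cdx1b had -0.67, -1.18 and 0.10 under CuO and -3.04, -2.31 and -1.90 in the controls. Neither was called (adjusted p = 0.446 and 0.129). The part of intestinal, pancreatic or liver transcripts in the values of the xenobiotic list and the cyp8b1, transporter and peptidase genes was not tested.

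Galectin genes and a pentraxin gene were also high. Galectins are sugar-binding lectins, and lgals9l4 had 1.44, -0.91 and -0.06 under CuO against -3.52, -3.07 and -1.56 in the controls and -5.25 to -2.77 under the other particles. All CuO values were above all others. It rose by 2.87 (SE 0.67, adjusted p = 0.0123). The related lgals9l5 rose by 2.69 (adjusted p = 0.0259), a call that needed each of control 1 and 2 and CuO 1 and 3. The neuronal pentraxin gene nptx2a had -3.53, -3.45 and -3.72 under CuO and at most -4.63 elsewhere, with a rise of 2.91 against the controls (SE 0.34, adjusted p = 0.000999). It was also called higher under NiO than in the controls (1.43, adjusted p = 0.016).

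Genes below all other arrays under CuO included signalling adaptors of innate immunity. The ubiquitin ligase gene traf6 was at -4.97, -5.03 and -5.08 under CuO and -2.23, -1.41 and -1.38 in the controls, with -4.32 as the lowest value under ZnO and NiO. It fell by 3.35 (SE 0.41, adjusted p = 0.00128), but its other tested probe differed by -0.03 and the mean of both lay at -1.69 (adjusted p = 0.011). It was also lower under ZnO than in the controls (-2.06, adjusted p = 0.00734). The kinase gene ripk2, which signals downstream of bacterial sensors, was at -3.34, -3.07 and -3.79 under CuO and 0.59, 0.00 and -0.16 in the controls, and at -2.29 or above under the other particles. It fell by 3.55 (SE 0.47, adjusted p = 0.00147). The connexin gene gjc4b fell by 3.01 (adjusted p = 0.00215), as did the ER acetyl-CoA transporter gene slc33a1 (-3.81, adjusted p = 0.000725) and the nucleoside transporter gene slc29a1a (-4.71, adjusted p = 0.000432, with -1.10 by its other probe). For each of these 5 genes, all 6 arrays of ZnO and NiO also lay below the mean of the controls. The differences of these 5 genes from the mean of ZnO and NiO were between -1.97 and -1.51, and none was called over all genes (adjusted p = 0.202 for each).

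The homeobox gene hoxb13a, a member of the posterior Hox group, had -6.43, -6.40 and -3.25 under CuO, -1.80, -2.03 and 0.22 in the controls and -2.3 to 0.77 under the other particles. It fell by 4.16 against the controls (SE 0.93, adjusted p = 0.0104) and lay 4.54 below the mean of ZnO and NiO (difference -4.54, SE 0.81, adjusted p = 0.202). Its other tested probe gave -2.2 against the controls, and with the mean of both it was not called (-3.18, adjusted p = 0.0508).

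**Figure D2:**
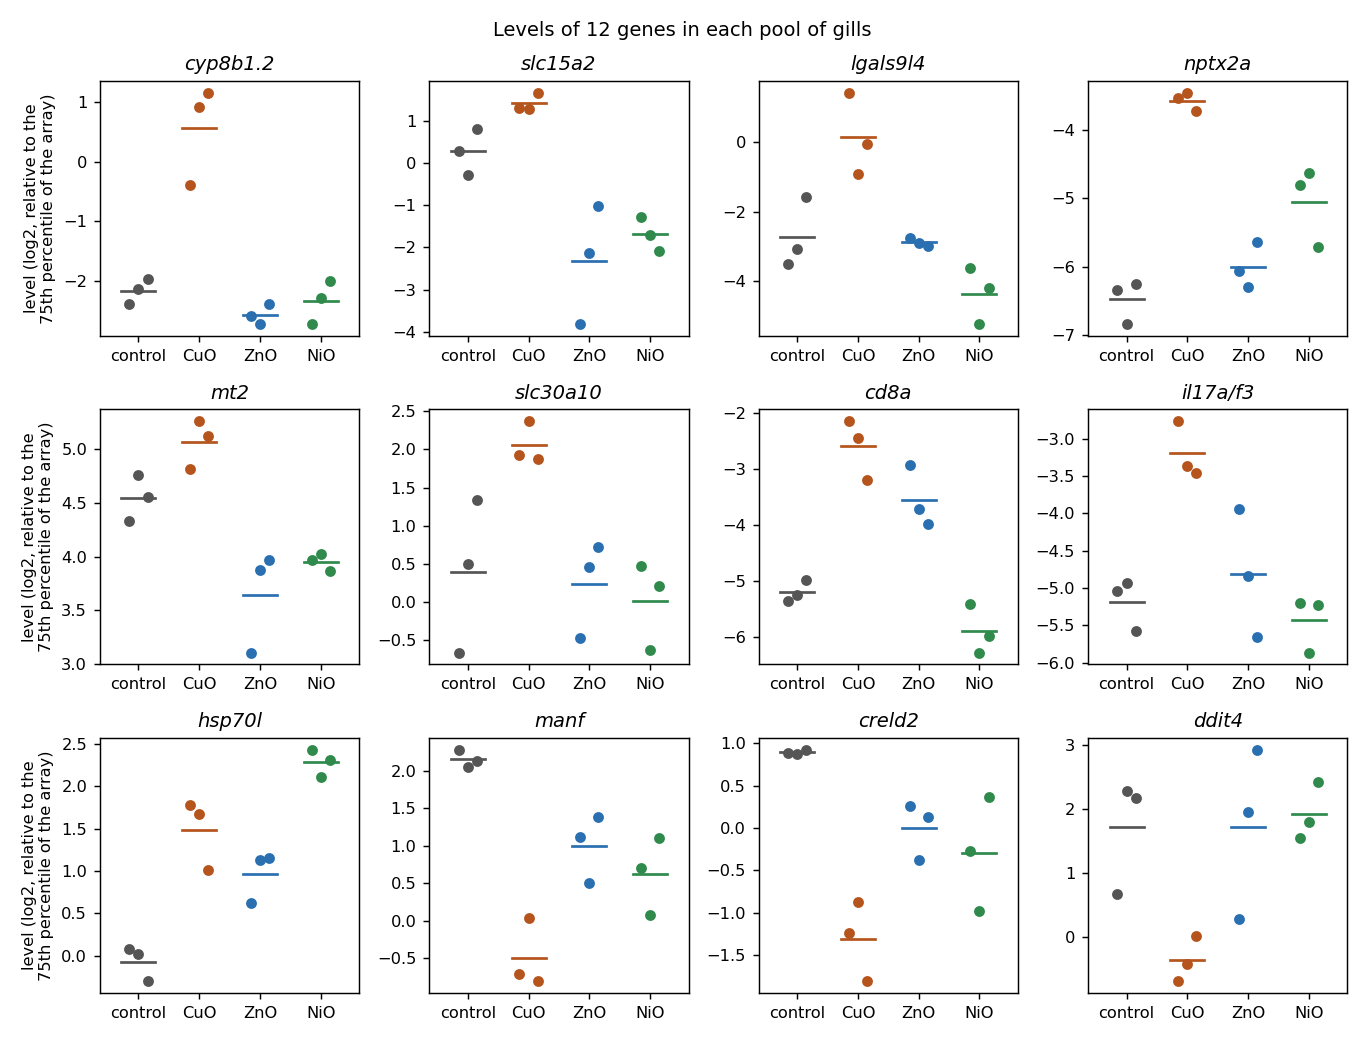
Levels of 12 genes in each of the 3 pools per group (log2 signal minus the array's 75th percentile, y axis), with the group mean as a bar. The CuO pools lie above the other 9 for cyp8b1.2, slc15a2, lgals9l4, nptx2a, mt2, slc30a10 and il17a/f3, and below them for manf and ddit4.

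Metal handling was first read from the metallothionein gene mt2. Its levels were 4.82, 5.26 and 5.13 under CuO, 4.33, 4.76 and 4.56 in the controls, 3.1, 3.87 and 3.97 under ZnO and 3.97, 4.02 and 3.86 under NiO. All CuO arrays were above all others, though CuO 1 exceeded control 2 only narrowly. The difference from the controls was 0.52 (95% interval -0.12 to 1.16, adjusted p = 0.197) and that from ZnO and NiO was 1.27 (interval 0.72 to 1.82, unadjusted p = 0.000419, adjusted p = 0.202). The metal sensor gene mtf1 rose by 1.26 (SE 0.29, adjusted p = 0.0108), from 1.3, 0.80 and 0.50 to 2.04, 1.93 and 2.41. Values of 1.62 to 2.15 under ZnO and NiO overlapped those of CuO. The rise of mtf1 was not called with ribosomal centring (0.96, adjusted p = 0.0794) or without the 4 arrays low in eye transcripts (0.94, adjusted p = 0.0937).

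Among 14 genes of copper uptake and delivery, 1 rose (mtf1) and 1 fell (cox19, a copper-binding factor of cytochrome oxidase assembly), with a median of -0.04, or -0.46 relative to all genes. Each share was 7.14%, against 11.4% of all genes risen and 13.7% fallen. Under ZnO and under NiO 1 member also rose and 1 fell. The fall of cox19 (-1.47, adjusted p = 0.0369) was lost without any 1 of control 2, control 3, CuO 1, CuO 2 and CuO 3. The importer gene slc31a1 was at 2.3, 2.54 and 2.28 under CuO and 1.14, 2.32 and 2.06 in the controls, which overlapped. Its difference was 0.53 (interval -0.49 to 1.55, adjusted p = 0.402). No call was made for the exporter gene atp7a (-0.63, interval -2.63 to 1.38), the chaperone genes atox1 (-0.46, interval -1.58 to 0.66) and ccs (-1.07, interval -3.91 to 1.78), the superoxide dismutase gene sod1 (0.15, interval -0.36 to 0.65) or the ferroxidase gene cp (0.69, interval -2.64 to 4.02).

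Of 15 genes for copper-dependent enzymes, 4 rose (sod3a, loxa, loxl1 and loxl2b) and 1 fell (loxl5b). The shares were 26.7% and 6.67%, against 11.4% and 13.7% of all genes. Against the same controls, 4 members also rose and 1 fell under ZnO, and likewise under NiO. The calls of the 3 risen lysyl oxidases were lost on leaving out single arrays: control 1 or 3 for each, and CuO 1 or 2 as well for loxl2b and CuO 1 to 3, ZnO 1 to 3 or NiO 1 for loxa. The extracellular superoxide dismutase gene sod3a rose by 1.22 (SE 0.29, adjusted p = 0.0139). The lysyl oxidase loxl5b, of the family that cross-links collagen, had -6.42, -5.64 and -5.12 under CuO and -3.45, -3.52 and -2.57 in the controls (-2.55, SE 0.48, adjusted p = 0.00495). Under ZnO and NiO it lay between -5.86 and -3.83, overlapping CuO and below the controls. With ribosomal centring 1 of the 15 rose and 1 fell. In a mixed list of 15 genes, for lipoylated mitochondrial proteins and copper-induced cell death, 1 rose and 2 fell. Those shares were 6.67% and 13.3%, against 11.4% and 13.7% of all genes. The gene dldh rose by 1.69 (adjusted p = 0.00776), while the lipoyl transferase genes lipt1 and lipt2 fell (-2.96 and -2.36, adjusted p = 0.0371 and 0.0128). The call of lipt2 was lost without CuO 1 and that of lipt1 on leaving out any 1 of 6 arrays (control 1 and 3, CuO 1 and 2, ZnO 3, NiO 1) and with the replicate block (adjusted p = 0.0596).

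Of 18 zinc and metallothionein genes, 4 rose (mtf1, slc30a1a, slc30a10 and slc39a3) and 0 fell, against 1 and 0 with ribosomal centring. The share that rose was 22.2%, against 11.4% of all genes. Under ZnO 3 members rose and 2 fell, and under NiO 2 rose and 1 fell. The exporter gene slc30a10, whose product carries manganese out of cells in mammals, had 1.93, 2.37 and 1.87 under CuO and -0.67, 0.50 and 1.34 in the controls, with at most 0.71 under the other particles. It lay 1.67 above the controls (adjusted p = 0.042) and 1.93 above ZnO and NiO (adjusted p = 0.252). The calls of slc30a10 and slc39a3 were each lost on leaving out any 1 of 8 arrays (for slc30a10, all but control 3, ZnO 1, ZnO 3 and NiO 2; for slc39a3, all but control 2, ZnO 1, ZnO 2 and NiO 2). That of slc30a1a (1.66, adjusted p = 0.0249) was lost on leaving out any 1 of control 1 and 3 and CuO 1 and 2. In the iron list 1 of 25 genes was called (4%, against 25.1% of all genes called either way). The iron exporter ferroportin, slc40a1, rose by 1.95 (SE 0.38, adjusted p = 0.00602), with 3 of its 4 tested probes called higher.

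Cytosolic chaperone genes rose in part, with 12 of 55 called higher and 2 lower and a median of 0.40, or -0.02 relative to all genes. The shares were 21.8% and 3.64%, against 11.4% and 13.7% of all genes. Against the same controls, 11 members rose and 2 fell under ZnO, and 10 rose and 2 fell under NiO. The stress-inducible hsp90aa1.2 was at 2.43, 2.16 and 1.81 under CuO and 0.04, 0.37 and -1.02 in the controls (2.34, SE 0.38, adjusted p = 0.00318). The inducible Hsp70 genes hsp70.3 and hsp70l rose by 1.4 and 1.56 (adjusted p = 0.00458 for both). These paralogues are near-identical, so their separate values are uncertain. The co-chaperone gene dnajb1b fell by 1.43 (adjusted p = 0.00485). At an unadjusted p under 0.05, 0 of the 55 were higher and 2 (3.64%) were lower than the mean of ZnO and NiO. Of all genes 4.59% were higher and 4.02% lower. The gene hsp90aa1.2 differed from that mean by 0.09 (interval -0.65 to 0.82).

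Of 48 genes of the ER protein-folding response, 41 were not called. Those called were 6 that fell (manf, sdf2l1, creld2, ostc, pdia4 and derl2) and 1 that rose (asns). The share that fell, 12.5%, was near the 13.7% of all genes, and the share that rose was 2.08%, against 11.4%. The list had a median of -0.13, or -0.54 relative to all genes. Against the same controls, 6 members rose and 2 fell under ZnO, and 5 rose and 3 fell under NiO. Relative to the median gene of each comparison, the medians of ZnO and NiO were -0.15 and -0.28. The secreted ER factor gene manf had -0.72, 0.03 and -0.81 under CuO, 2.28, 2.05 and 2.13 in the controls, 1.12, 0.50 and 1.39 under ZnO and 0.70, 0.07 and 1.11 under NiO. All CuO arrays were below all others. It fell by 2.66 (SE 0.36, adjusted p = 0.00174).

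The Hsp70 co-factor gene sdf2l1 fell by 2.02 (adjusted p = 0.00202), from 0.51, 1.12 and 1.39 to -0.90, -1.07 and -1.09, and lay below all the other arrays. Of its 3 tested probes 1 was called, the smallest difference was -0.78, and with the mean of probes the gene was not called (-1.31, adjusted p = 0.0614). The ER chaperone gene creld2 fell by 2.19 (adjusted p = 0.00368), from 0.88, 0.87 and 0.92 to -1.24, -0.87 and -1.80. Its CuO 2 value overlapped NiO 2, at -0.98. The glycosylation subunit gene ostc fell by 1.31 (adjusted p = 0.00702) and the disulfide isomerase gene pdia4 by 1.45 (adjusted p = 0.0103).

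The main ER chaperone gene hspa5, in contrast, had 2.57, 3.01 and 2.59 under CuO and 2.91, 3.03 and 2.93 in the controls, and was not called (-0.23, interval -0.88 to 0.42). The asparagine synthetase gene asns lay 1.25 above the controls (adjusted p = 0.0336), but its probes disagreed: with the mean of its probes it lay at -1.56 (adjusted p = 0.0107). Against the mean of ZnO and NiO, 0 of the 48 were higher and 11 (22.9%) were lower at an unadjusted p under 0.05, where 4.02% of all genes were lower. They were manf (-1.31), sdf2l1 (-0.95), creld2, ostc, derl2, atf4b, atf3, trib3, chac1, asns and ppp1r15a, and limma called none of them over all genes (adjusted p = 0.252 and 0.307 for the first pair). Of these, manf, sdf2l1, creld2, ostc and derl2 were also called lower than the controls, while asns was called higher. The rest were not called against the controls, such as atf3 (1.04, adjusted p = 0.139) and chac1 (-0.53, adjusted p = 0.361). The call of derl2 against the controls (-0.90, adjusted p = 0.0171) was lost without control 2, CuO 1 or CuO 2, and that of asns without control 1, control 3, CuO 1, CuO 2 or CuO 3.

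**Figure D3:**
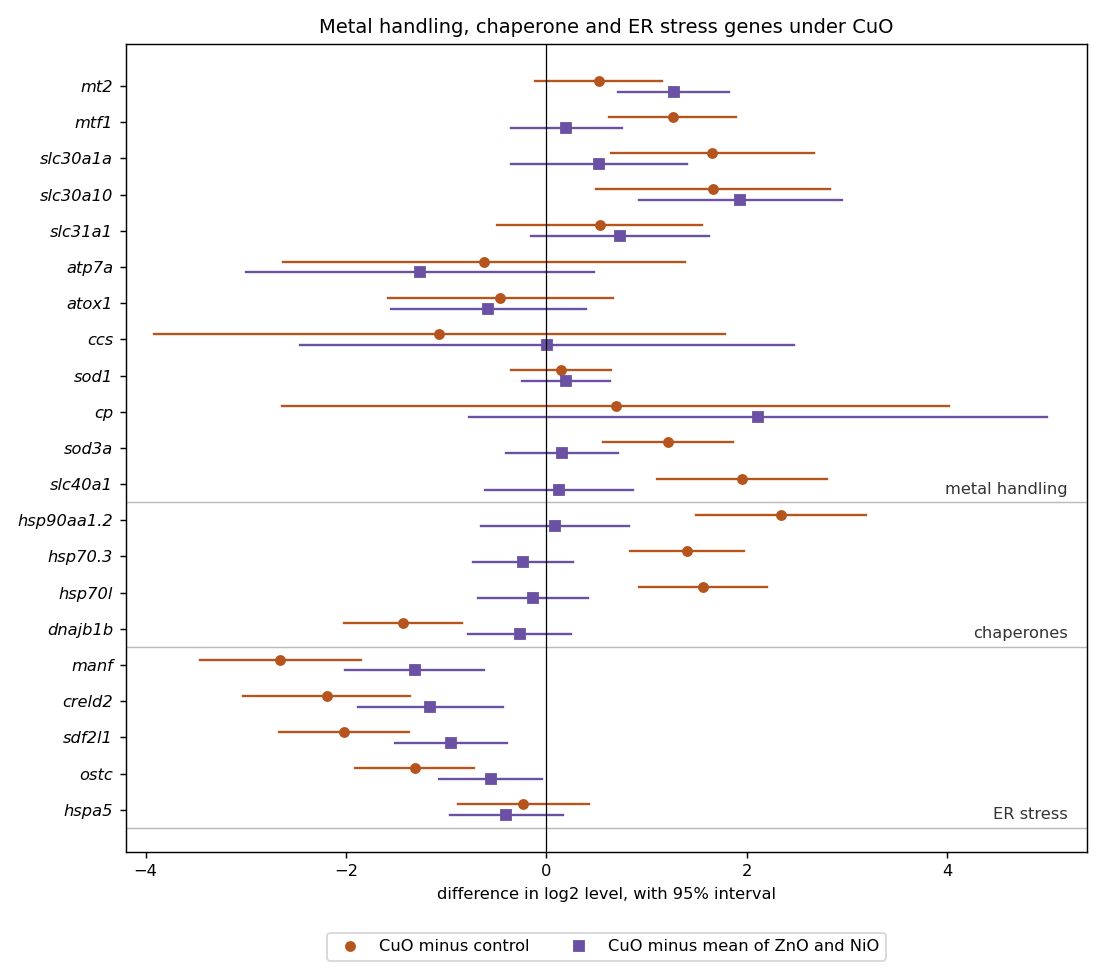
Differences of metal handling, chaperone and ER stress genes (log2, x axis) with 95% intervals, as CuO minus control (circles) and CuO minus the mean of ZnO and NiO (squares). The intervals of manf, creld2 and sdf2l1 lie below 0 in both differences, while those of hsp90aa1.2, hsp70.3 and hsp70l lie above 0 against the controls only.

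Antioxidant and glutathione genes were called in both directions, 7 higher (12.1%) and 4 lower (6.9%) of 58, with a median of 0.51 (0.09 relative to all genes). Of all genes 11.4% were higher and 13.7% lower. The ER peroxidase gene gpx8 had -2.96, -5.09 and -3.51 under CuO and 2.47, 0.40 and 2.52 in the controls (-5.65, SE 1.05, adjusted p = 0.00475). Under ZnO and NiO it lay between -5.33 and -0.93, overlapping CuO. The microsomal glutathione transferase gene mgst1.2 rose by 1.21 (adjusted p = 0.0059) and keap1a, the sensor that restrains the antioxidant factor Nrf2, by 1.17 (adjusted p = 0.0104). The Nrf2 target nqo1 rose by 1.53 (adjusted p = 0.0137), a call lost without control 3. The heme oxygenase gene hmox1a (1.56, interval -0.18 to 3.29) and the glutathione synthesis gene gclc (0.23, interval -0.75 to 1.22) were not called.

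Lymphocyte genes rose in 5 of 23 cases (21.7%, against 11.4% of all genes) and fell in 0, with 1 of 23 called under ribosomal centring. The risen genes were cd8a, zap70, il2rga, syk and pax5. Against the same controls, 5 members also rose and 0 fell under ZnO, and 1 rose and 1 fell under NiO. The list median was 1.18 above the controls under CuO (0.76 relative to all genes), and its level was -1.34, -1.4 and -1.52 under CuO, -2.54, -2.41 and -2.68 in the controls, -1.54, -2.59 and -2.21 under ZnO and -2.53, -2.83 and -3.25 under NiO. All CuO arrays lay above all others, ZnO 1 only narrowly. The cytotoxic T cell co-receptor gene cd8a had -2.15, -2.44 and -3.19 under CuO, -5.36, -5.25 and -4.99 in the controls, -2.94, -3.72 and -3.99 under ZnO and -5.42, -6.28 and -5.98 under NiO. CuO overlapped ZnO and lay above the controls and NiO. It rose by 2.6 (SE 0.38, adjusted p = 0.00215).

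The T cell kinase gene zap70 rose by 1.46 (SE 0.33, adjusted p = 0.0111), and its values of -0.69, -0.83 and -0.40 overlapped those of ZnO, up to -0.05. The kinase gene syk rose by 1.26 (adjusted p = 0.00933), and the cytokine receptor gene il2rga was at least 3.74-fold higher. Of the 5 risen lymphocyte genes, il2rga alone entered the test only through the CuO arrays, so it had to be higher there and adds no support to that count. The call of the B cell factor gene pax5 (1.64, adjusted p = 0.031) was lost without any 1 of the 3 controls, CuO 1 or CuO 3. At an unadjusted p under 0.05, 6 of the 23 were higher and 0 lower than the mean of ZnO and NiO. The share higher was 26.1%, against 4.59% of all genes. The 6 were cd8a, zap70, the helper cell co-receptor cd4-1 (1.21), the T cell kinase lck, the interleukin receptor il7r and the homing receptor ccr7 (2.35). For cd4-1 and ccr7 all CuO arrays were above the other 9, but neither was called against the controls (1.04, adjusted p = 0.0779, and 1.66, adjusted p = 0.0882).

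The interleukin 17 gene il17a/f3, of a cytokine family made by T cells and innate lymphoid cells at barriers, had -2.77, -3.36 and -3.46 under CuO, -5.04, -4.93 and -5.58 in the controls and at most -3.94 under the other particles. It rose by 1.99 (SE 0.43, adjusted p = 0.00917). It was 1 of 3 risen genes among 43 of acute inflammation (6.98%, against 11.4% of all genes). The NF-kB genes rela (2.02) and nfkbiaa (0.94) were the others. Both of those calls were lost on leaving out single arrays (rela without control 1, control 2, control 3, CuO 1 or CuO 3, and nfkbiaa without control 1, control 3, CuO 1, CuO 2, CuO 3, NiO 1 or NiO 3). With the replicate block nfkbiaa was not called either (adjusted p = 0.0517). The signalling enzyme gene plcg2, active in B cells and myeloid cells, had 2.54, 1.61 and 1.99 under CuO and at most 1.44 elsewhere (1.72, SE 0.35, adjusted p = 0.00724). The cathepsin S gene ctss2.1, a lysosomal protease of antigen-presenting cells, fell by 1.46 (adjusted p = 0.00532). The phagocyte oxidase gene ncf4 rose by 1.34 (adjusted p = 0.00868). In the myeloid list 3 of 32 were higher (9.4%) and 1 lower (3.1%), against 11.4% and 13.7% of all genes. Under ZnO 10 of them rose and 1 fell, and under NiO 6 rose and 1 fell.

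Interferon response genes rose in 5 of 38 cases (13.2%, against 11.4% of all genes) and fell in 0. Their median was 0.48 under CuO, 0.66 under NiO and 1.32 under ZnO, all against the same controls. Relative to the median gene of each comparison, these medians were 0.07, 0.40 and 1.0. Under NiO 4 members were called higher and 1 lower, and under ZnO 17 and 0. The ubiquitin ligase gene trim25 rose by 1.31 under CuO (adjusted p = 0.00838). At an unadjusted p under 0.05, 7 of the 38 (mxa, mxb, mxc, mxe, irf7, pkz and sting1) were lower and 0 higher than the mean of ZnO and NiO. The share lower was 18.4%, against 4.02% of all genes.

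Genes of motile cilia, the beating projections of multiciliated cells, rose in 20 of 58 cases and fell in 2 (8 and 2 with ribosomal centring). The shares were 34.5% and 3.45%, against 11.4% and 13.7% of all genes. Against the same controls, 2 members rose and 8 fell under ZnO, and 14 rose and 2 fell under NiO. The list median was 1.24 under CuO, 0.48 under ZnO and 1.15 under NiO. Relative to the median gene of each comparison, these medians were 0.83, 0.16 and 0.88. The tektin gene tekt1, for a protein inside the ciliary microtubule doublet, had -1.86, 0.03 and -0.82 under CuO and -4.2, -3.53 and -4.21 in the controls (3.1, SE 0.65, adjusted p = 0.00788). Its NiO values, up to -0.45, overlapped CuO. Likewise ak8 rose by 3.21 (adjusted p = 0.00691), morn3 by 2.29 (adjusted p = 0.00418) and the dynein docking gene odad3 by 2.13 (adjusted p = 0.00734). At an unadjusted p under 0.05, 5 members were higher and 1 lower than the mean of ZnO and NiO. Those shares were 8.62% and 1.72%, against 4.59% and 4.02% of all genes. The pituitary and brain list, from tissue that also holds ciliated cells, had 11 of 46 members risen and 0 fallen. Its share of risen members was 23.9%, against 11.4% of all genes. In the same list 6 members rose and 1 fell under ZnO, and 6 rose and 0 fell under NiO. The median level of that list was 0.56, 0.22 and -1.71 under CuO and -2.2, -1.52 and -3.50 in the controls. Its part in the cilia values was not tested.

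Ion transport and ionocyte genes rose in 10 of 53 cases and fell in 1 (4 and 1 with ribosomal centring), with a median of 1.31 (0.89 relative to all genes). The shares were 18.9% and 1.89%, against 11.4% and 13.7% of all genes. Against the same controls, 12 members rose and 1 fell under ZnO, and 11 rose and 1 fell under NiO. The stanniocalcin gene stc1, whose hormone limits calcium uptake in fish, had -0.41, -0.82 and -1.75 under CuO and -3.16, -3.04 and -3.62 in the controls (2.28, SE 0.36, adjusted p = 0.00296). The parathyroid hormone gene pth1a had -6.51, -6.98 and -5.39 under CuO and 1.38, -0.01 and 1.99 in the controls (-7.41, SE 1.26, adjusted p = 0.00362). Under ZnO and NiO it spanned -7.05 to -1.52. The carbonic anhydrase gene ca4a rose by 1.84 (adjusted p = 0.00386) and the ammonia transporter gene rhbg by 1.08 (adjusted p = 0.0114).

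Keratin and barrier genes rose in 8 of 53 cases (15.1%, against 11.4% of all genes) under CuO and fell in 0 (2 and 0 with ribosomal centring). Under ZnO 21 rose and under NiO 18, and 0 fell under either. Their median was 0.79 under CuO, 1.00 under ZnO and 1.2 under NiO, all against the same controls. Relative to the median gene of each comparison, these medians were 0.38, 0.68 and 0.94. The keratin gene krt1-c5 rose by 2.19 (adjusted p = 0.0023) and the transglutaminase gene tgm1l4, of a family that cross-links the cell envelope, by 4.59 (SE 1.00, adjusted p = 0.00923). At an unadjusted p under 0.05, 12 of the 53 were lower and 1 (krt95) higher than the mean of ZnO and NiO. The share lower was 22.6%, against 4.02% of all genes. Among the lower genes, scel, for the cornified envelope precursor sciellin, had 0.69, 1.13 and 0.81 under CuO and 1.66 to 2.29 under the other particles. The calpain gene capn9 had 2.2, 2.4 and 1.51 against 3.12 to 3.95. The mucous cell gene agr1 had 1.45, 2.19 and 0.92 against 3.36 to 4.25. The CuO arrays of these 3 genes lay below all 6 arrays of the other particles, and none was called against the controls (adjusted p = 0.318, 0.12 and 0.877). By contrast krt95, chosen after its values were seen, had 2.56, 2.56 and 2.83 under CuO and -7.93 to 0.70 on the other 9 arrays, and was not called against the controls (5.72, SE 2.15, adjusted p = 0.0764).

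Matrix genes rose in 17 of 56 cases (30.4%, against 11.4% of all genes) and fell in 0 (7 and 0 with ribosomal centring). Under ZnO 18 rose and 0 fell, and under NiO 17 rose and 1 fell. Their median was 1.21 under CuO, 1.12 under ZnO and 1.1 under NiO. Relative to the median gene of each comparison, these medians were 0.79, 0.80 and 0.83. The proteoglycan gene dcn rose by 1.56 (adjusted p = 0.00494) from 0.81, 0.41 and 0.72 to 2.31, 1.87 and 2.45. The collagen chaperone gene serpinh1b rose by 2.08 (adjusted p = 0.0106), the collagen gene col5a3a by 1.91 (adjusted p = 0.0099) and the basement membrane gene tinagl1 by 3.45 (adjusted p = 0.00734).

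Clock genes rose in 9 of 35 cases (25.7%, against 11.4% of all genes) and fell in 0. Against the same controls, 9 rose and 1 fell under ZnO, and 12 rose and 0 fell under NiO. The repressor nr1d1 rose by 2.79 (SE 0.57, adjusted p = 0.00733), nr1d2b by 1.34 (adjusted p = 0.00577), the kinase gene csnk1e by 1.71 (adjusted p = 0.00386) and fbxl3a, which targets cryptochromes for degradation, by 1.36 (adjusted p = 0.00759). The immediate early gene egr2b rose by 2.17 (adjusted p = 0.00398), and egr1 was at least 5.13-fold higher (adjusted p = 0.00944). In the immediate early list 6 of 48 (12.5%) rose and 1 fell (btg2, -1.5, adjusted p = 0.02, a call that needed each of control 2 and 3 and CuO 1 and 3). In the same list 16 rose and 1 fell under ZnO, and 13 rose and 0 fell under NiO.

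Calls were fewer among energy and proteasome genes: 6.76% of the oxidative phosphorylation and 4.17% of the proteasome list rose, against 11.4% of all genes. Of 74 oxidative phosphorylation genes 5 rose and 0 fell, with the complex subunit genes sdhda and ndufa12 up by 2.25 and 2.18 (adjusted p = 0.00398 and 0.00386). The median of that list was 0.16, but -0.14 with ribosomal centring. Relative to all genes it was -0.25 in both. Of 48 proteasome genes 2 rose and 1 fell (psmd10, -1.83, adjusted p = 0.00806). Called against the controls were 9 higher and 1 lower under ZnO, and 3 and 2 under NiO. The proteasome median was 0.06 under CuO, 0.59 under ZnO and 0.29 under NiO. Relative to the median gene of each comparison, these medians were -0.36, 0.27 and 0.03. At an unadjusted p under 0.05, 6 proteasome genes were lower (12.5%, against 4.02% of all genes) and 0 higher than the mean of ZnO and NiO. Of 42 hypoxia and glycolysis genes 3 rose (7.14%) and 1 fell (2.38%), against 11.4% and 13.7% of all genes. The fallen gene ddit4, an inhibitor of the growth kinase mTOR, had -0.70, -0.43 and 0.01 under CuO, 0.66, 2.28 and 2.17 in the controls and 0.27 to 2.92 under the other particles, below all of them. Its fall of 2.08 (adjusted p = 0.0409) was not called on leaving out any 1 of 8 arrays (all but control 1, ZnO 1, ZnO 3 and NiO 2). Of 33 p53 pathway genes 5 rose (15.2%) and 4 fell (12.1%), near the 11.4% and 13.7% of all genes. Among them sesn3, a stress-induced inhibitor of mTOR signalling, was up by 2.09 (SE 0.30, adjusted p = 0.00192). Of 31 cholesterol synthesis genes 5 rose (16.1%) and 3 fell (9.68%), also not far from the shares of all genes. Of these mvk, for mevalonate kinase, fell by 2.88 (adjusted p = 0.00589) and dhcr7, for the last step to cholesterol, rose by 1.43 (adjusted p = 0.0117).

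**Figure D4:**
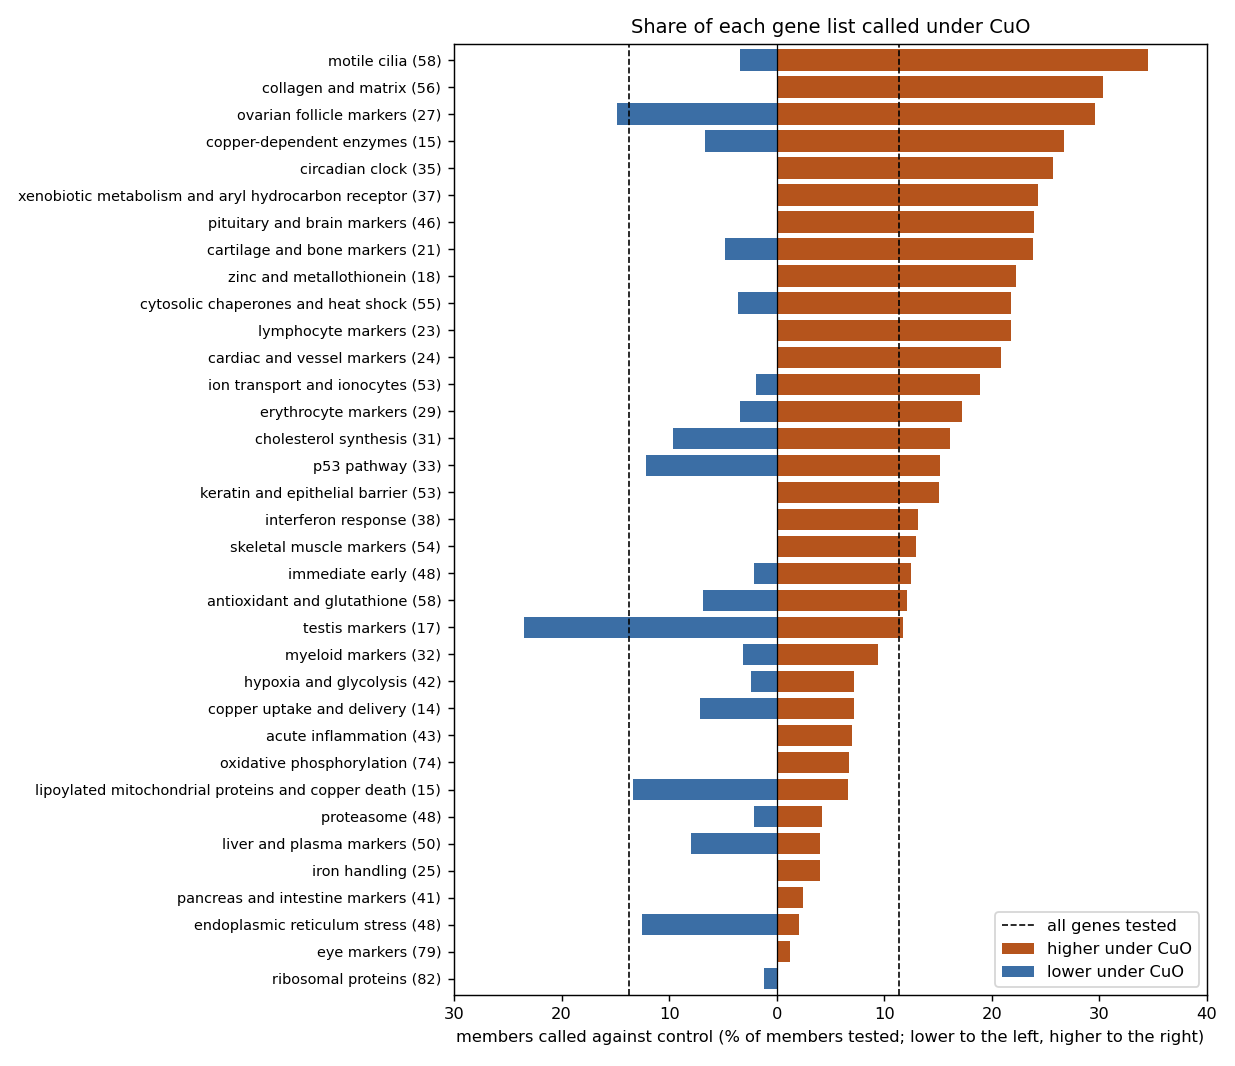
Share of each gene list called under CuO against the controls (percent of members tested, lower to the left and higher to the right), with the shares of all genes tested as dashed lines at 11.4% and 13.7%. The oocyte and cell cycle lists are left out, and the motile cilia, collagen and matrix and ovarian follicle lists have some of the highest shares of risen members.

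Of the genes called under CuO, 364 of the 1439 risen and 250 of the 1723 fallen were not called the same way under either ZnO or NiO, which does not show that those groups differed. The largest such rises outside the marker lists, beside slco1f2 and cyp8b1.3, included the odorant receptor gene or90e2, at least 6.66-fold higher, and the sialyltransferase gene st8sia4, at least 4.54-fold higher. The Pim kinase-related genes pimr140 (at least 25.4-fold) and pimr166 (4.08, adjusted p = 0.0146) belong to a large family of close copies, so their values are uncertain. Like slco1f2, the genes or90e2, st8sia4 and pimr140 entered the test only through the CuO arrays. The call of pimr166 was lost without CuO 2. Among the largest such falls, hoxb13a and the finTRIM gene ftr86 (-3.04, adjusted p = 0.0132) stayed called whichever array was left out, but neither was called with the mean of probes. For ftr86 that mean was -1.11 (adjusted p = 0.057), and its 4 tested probes spanned -3.04 to 0.28. The levels of ftr86 were -0.31, -0.50 and -2.05 under CuO and 1.63, 2.33 and 2.32 in the controls, while the other particles spanned -1.41 to 1.67.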

How the data were processed

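Agilent one-colour arrays of 12 gill pools were analysed, 3 per group. Per the file headers, the deposited scanner files hold Agilent Feature Extraction's background-subtracted processed intensity for 45220 spots, 43803 of them not controls. The labels mention a dye swap, but each file has 1 channel. In the deposited series table, 2 of 12 columns hold the array of their own sample, so it served only as an alternative. The authors' MAS5 step is named in the submitters' processing notes, with its role not given in the sources used here.

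Control and outlier-flagged spots were left out, spots of a probe were averaged, and log2 of the deposited intensity minus each array's 75th percentile was analysed. Of 43603 probes, 26094 matched a current gene through RefSeq accessions. Tested probes were those well above background throughout 1 group or more (3 arrays), and the brightest tested probe stood for its gene (12617 genes, at least 2 values in every group). Groups were compared in 1 fit of 4 group means (limma 3.58.1, R 4.3.3, lmFit and eBayes) with Benjamini-Hochberg adjustment over all genes. The step was tested on simulated data. An "at least" fold is given where 1 group had no array well above background: it sets the other group's mean against a floor, which on each array is the dim probe's value or, if higher, the dimmest value among probes well above background.

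The comparison, the 37 gene lists and the rules were chosen with earlier results of these data known. Named were a fixed set of metal and stress genes, up to 4 called members per list by adjusted p, and the 10 largest changes each way not called the same way under ZnO or NiO. The rule for genes that set CuO apart named 0 genes. The genes outside the range of the other 9 arrays, and further list members, were therefore chosen after their values were seen. One fixed gene, atp7b, was not tested.

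Alternatives were normexp (on the median signal, since the mean signal column is absent), other scalings, no filter, the mean of probes, slide or replicate number as a block, fewer samples, array weights, oocyte or eye markers as covariates, the series table and leaving out each array. Each group has its own position on every slide, so position and group cannot be told apart. A slide holds the arrays of 1 replicate number, whose deviations correlated from -0.58 to 0.48, so the numbers were not taken as pairs. Samples are separate pools, and p-values measure the spread between pools. Promoter motifs were not analysed here.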

Additional observations from a re-analysis of the deposited data

Results flagged for a closer look

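Opposite directions were looked for only among 142 named genes, some of them chosen after their values were seen. No share over all 12617 genes was computed. For 8 of the 142, every CuO array lay on 1 side of the controls and every array of another particle on the other. Each difference was tested in limma and none was called over all genes. CuO exceeded ZnO for cyp8b1.2 (3.14, adjusted p = 0.138), slc15a2 (3.73, adjusted p = 0.228) and mt2 (1.42, adjusted p = 0.28). CuO exceeded NiO for slc15a2 (3.1, adjusted p = 0.208), lgals9l4 (4.52, adjusted p = 0.0959), plcg2 (2.08, adjusted p = 0.173), the aminopeptidase gene lnpep (2.37, adjusted p = 0.0959, with probes that disagreed), mt2 (1.12, adjusted p = 0.361) and cd8a (3.30, adjusted p = 0.064). The aldehyde dehydrogenase gene aldh3b1 lay lower under CuO than under ZnO (-1.73, adjusted p = 0.228) and NiO (-1.38, adjusted p = 0.269). Its limma call against the controls (-0.99, adjusted p = 0.0365) was lost without control 1, control 2, control 3, CuO 2, CuO 3 or NiO 3.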

How the results depend on the processing

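The main limits are 3 arrays a group, the loss of oocyte transcripts on every CuO array and the position of each group on the slide. Against the controls, 595 genes rose with ribosomal centring, 3615 with array weights and 2208 with eye markers as a covariate. Limma called 0 higher and 0 lower with the oocyte covariate (610 at an unadjusted p under 0.05) and likewise for values of the series table (255). Leaving out each array gave 575 to 1589 rises and 1193 to 1847 falls. List members called higher numbered 87 with ribosomal centring, 432 with array weights, 0 with the oocyte covariate, 0 by the series values and 84 to 209 on leaving out arrays. List members called lower numbered 0 with the oocyte covariate and 0 by the series values. Of 120 named calls, 75 held without the 4 arrays low in eye transcripts, 0 with the oocyte covariate and 0 by the series values. Leaving out each array kept 79 to 119 calls, 79 of them without control 3, and 70 calls held in all of these fits.

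Against the mean of ZnO and NiO, 39 genes were higher and 27 lower with array weights, 1 and 1 with the eye covariate, 1 and 3 without the eye-low arrays, and 1 higher (cyp8b1.2) with the percentile over detected probes. Leaving out arrays gave 0 to 3 higher and 0 to 1 lower. Against ZnO, 1 gene was lower without the eye-low arrays, and leaving out arrays gave 0 to 35 higher, 35 of them without ZnO 3. Against NiO, array weights gave 32 higher and 24 lower, the eye covariate 2 and 1, the eye-low arrays left out 1 and 2, the oocyte covariate 1 higher, and leaving out arrays 0 to 2 higher and 0 to 1 lower. Genes called both against the controls and against ZnO and NiO numbered 53 with array weights, 2 with the eye covariate (cyp8b1.2 and hoxb13a), 3 without the eye-low arrays (desi1a, hoxb13a and ttyh3b), 1 with detected probes and 0 to 2 on leaving out arrays.

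The replicate block, the same fit as the slide block, gave 1393 rises and 1581 falls and kept 109 of the 120 named calls. Some of those 120 belong to genes not described in the text. Of the genes described, the block ended the calls of lipt1, nfkbiaa, desi1a, tsnax and cuedc1b. Fitting only the groups compared kept 108 and, of the genes described, ended the calls of dpp4, aldh3b1, slc30a10, slc39a3, cox19, nfkbiaa, derl2, asns, desi1a and pax5. Of the same genes, quantile normalization (114 kept) ended those of cpo, loxl1, il2rga and desi1a, and normexp (116 kept) those of slc39a3, loxl1 and il2rga. Detected probes (118 kept) ended those of desi1a and loxa, no filter (118 kept) that of desi1a, and ribosomal centring (88 kept) also that of desi1a. Direction turned for tsnax (0.029) and cuedc1b (0.78) with the oocyte covariate and for asns (-1.56) with the mean of probes. The cause of these changes was not tested. The series values were read for counts only, not gene by gene.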

Other observations

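The desumoylating peptidase gene desi1a, chosen after its values were seen, was at 0.38 and 0.28 on CuO 1 and CuO 2 and at -5.67 on CuO 3, while the other 9 arrays lay between -6.22 and -3.93. Its difference from the controls was 4.02 (adjusted p = 0.0485 in limma) and was not called without any 1 of 11 arrays (all but CuO 3) or with the replicate block (adjusted p = 0.0545). Its paralogue desi1b fell by 2.58 (adjusted p = 0.00306) and the ubiquitin ligase gene fbxo30a by 2.72 (adjusted p = 0.00478), each with all CuO arrays below the other 9.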
